A study of Mus musculus with 16 samples.

Results

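Complex I (NADH:ubiquinone oxidoreductase) is the entry enzyme of the mitochondrial respiratory chain, and most of its subunits are encoded in the nucleus by genes whose symbols begin with Nduf. The genes described here are the rows of the deposited table whose symbol is Nduf followed by a, b, c, s or v and a number, or by one of these letters, f and a number, with names of numbered pseudogenes (-ps) left out. Of the 55492 genes in the table, 48 matched, of which 40 had a subunit name and 8 the name of an assembly factor (Ndufaf). The acyl carrier subunit *Ndufab1* has another form of name and was not taken. Among the 40 subunit names, 35 belong to the enzyme itself. Another 2, *Ndufa4* and *Ndufa4l2*, were named for complex I but lie outside it, and 3 are paralogs (*Ndufa11b*, *Ndufb4c* and *Ndufs6b*) that the GENCODE annotation lists as processed pseudogenes.

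RNA was sequenced from the left ventricles of male C57BL/6 mice aged 8 to 12 weeks, with 1 mouse per library and 16 libraries in all. PKM2-/- mice lack exon 10 of *Pkm* in all tissues after germline excision by a Cre driven by the CMV promoter, and were then bred until the Cre allele was gone. PKM2fl/fl control mice carry the same floxed allele undeleted. Each genotype was sampled without surgery (baseline, n = 2), and at 3 days after sham surgery (n = 3) or myocardial infarction (MI, n = 3) by permanent ligation of the left anterior descending artery. The comparisons ask how loss of PKM2, the isoform of pyruvate kinase that includes exon 10, and infarction affect cardiac transcripts.

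The enzyme is L-shaped. Its matrix arm holds the N module, which oxidizes NADH, and the Q module, which passes the electrons over iron-sulfur clusters to ubiquinone. Its membrane arm pumps protons and is usually divided into a proximal and a distal part. The core of the matrix arm consists of 7 nuclear-encoded subunits, the core of the membrane arm is encoded in mitochondrial DNA, and the remaining nuclear-encoded subunits are accessory. Assembly factors help build the enzyme and are not part of the finished complex. Cardiomyocytes are among the cells richest in mitochondria, and in bulk tissue the level of a transcript depends both on how many cells of a type are present and on how much RNA each holds. These cannot be told apart in such data.

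Library size ranged from 20623769 to 71855101 reads, of which 39451 to 362033 fell on the 48 genes. Loci related to ribosomal RNA took 15.5% to 44.7% of the reads. At baseline they took 17.2% to 22.1% in PKM2fl/fl and 38.7% to 43.1% in PKM2-/- hearts. These loci include the mitochondrial *mt-Rnr1* and *mt-Rnr2*, which at baseline took 17% and 21.6% in PKM2fl/fl and 34.7% and 30.9% in PKM2-/- hearts. *Pkm* as a whole gene had 7779 to 12076 normalized counts in PKM2fl/fl and 10120 to 16113 in PKM2-/- libraries, which cannot show the loss of 1 exon. The 12 cardiomyocyte markers were detected in every library. Values below are normalized counts, which are reads divided by the size factor the authors gave each library. A gene is called where limma's test on log2(normalized count + 1) had an adjusted p under 0.05 over the 20576 genes whose mean reached 10, and differences are on that log2 scale with their standard error. *Ndufa11b*, at 0 to 13 normalized counts, fell below that mean and was not tested, so 39 subunit genes and all 8 assembly factor genes were.

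Transcripts of the subunits were far more abundant than those of the assembly factors. Divided by the length of the canonical transcript in kb, the baseline mean of the 35 genes of the enzyme had a median of 3421 normalized counts per kb, and 30 of them lay above 1000. *Ndufb8*, of the distal membrane arm, was the highest at 10051 per kb. The 8 assembly factor genes had a median of 277 per kb and ran from 150 for *Ndufaf1* to 1210 for *Ndufaf2*. *Ndufa4*, which is now assigned to complex IV, stood above every gene of the enzyme at 21899 per kb, while its paralog *Ndufa4l2* was at 185. Some canonical transcripts are long for the gene, such as 7389 bases for *Ndufa10* and 4389 for *Ndufb2*, so the order of genes by this measure is rough. *Ndufs3* was the lowest gene of the enzyme at 41.6 per kb and is treated apart, since its count is uncertain.

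To show what sequence lies before some of the genes whose changes differed most, the 250 bases upstream of the RefSeq transcript start are printed. They are from GRCm38.p6, which corresponds to the mm10 build of the deposited counts, and run 5′ to 3′ on the strand of the gene. Capitals mark matches on either strand to motifs of factors known to act on nuclear genes for mitochondrial proteins. The motifs searched were GCGCANGCG for NRF1, TCAAGGTCA for the estrogen-related receptors (ERR), CCGGAAG for GABPA and AAGATGGCG for YY1. The printed genes are a selection, which leaves out Ndufc1 and Ndufaf1 although these fell more in PKM2fl/fl hearts than Ndufv1 and Ndufaf4. Ndufs6 and Ndufv1 are among the 5 subunit genes with the most negative difference after MI in PKM2fl/fl hearts. Ndufaf8 and Ndufaf4 are among the 3 such assembly factor genes. Ndufaf2, added after its values were seen, is the assembly factor gene that did not fall. In order, the regions are chr13:73328483-73328732, chr19:4012756-4013005, chr11:120098684-120098933, chr4:24897833-24898082 and chr13:108158626-108158875.
Ndufs6: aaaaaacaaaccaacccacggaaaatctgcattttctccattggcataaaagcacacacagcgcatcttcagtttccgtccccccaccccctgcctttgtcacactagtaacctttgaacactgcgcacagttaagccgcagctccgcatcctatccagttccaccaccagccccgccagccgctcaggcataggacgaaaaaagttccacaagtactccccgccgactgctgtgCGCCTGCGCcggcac
Ndufv1: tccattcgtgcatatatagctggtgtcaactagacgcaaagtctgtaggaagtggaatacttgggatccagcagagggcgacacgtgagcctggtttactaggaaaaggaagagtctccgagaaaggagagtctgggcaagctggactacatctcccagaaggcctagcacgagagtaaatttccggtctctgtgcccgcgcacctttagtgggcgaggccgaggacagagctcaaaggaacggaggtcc
Ndufaf8: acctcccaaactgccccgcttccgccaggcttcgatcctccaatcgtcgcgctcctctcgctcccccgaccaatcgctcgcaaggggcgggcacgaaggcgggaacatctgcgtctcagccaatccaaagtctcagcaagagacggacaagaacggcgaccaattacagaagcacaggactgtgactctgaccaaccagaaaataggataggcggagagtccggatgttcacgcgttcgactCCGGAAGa
Ndufaf4: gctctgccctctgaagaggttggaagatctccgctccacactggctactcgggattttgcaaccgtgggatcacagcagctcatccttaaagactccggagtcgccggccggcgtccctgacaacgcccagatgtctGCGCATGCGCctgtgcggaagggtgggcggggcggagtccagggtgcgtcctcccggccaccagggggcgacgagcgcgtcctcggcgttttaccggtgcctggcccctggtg
Ndufaf2: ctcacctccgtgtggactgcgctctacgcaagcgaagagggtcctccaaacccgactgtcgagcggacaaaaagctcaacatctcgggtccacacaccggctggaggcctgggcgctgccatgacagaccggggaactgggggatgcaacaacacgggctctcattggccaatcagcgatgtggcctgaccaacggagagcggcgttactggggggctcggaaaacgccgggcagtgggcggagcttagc

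The *Ndufs6* sequence held an NRF1 match that began 15 bases before the start, the *Ndufaf4* sequence overlapping NRF1 matches on both strands at 113 and 112 bases before it, and the *Ndufaf8* sequence a GABPA match 8 bases before it. The printed sequences of *Ndufv1* and *Ndufaf2* held none of these letters. Over windows of 300 bases, which reach 50 bases past the start, 32 subunit genes had a sequence. Of these, 8 held the NRF1 motif (25.0%, against 7.03% of the 27025 genes with such a window), 5 the YY1 motif (15.6% against 1.64%), 4 the GABPA motif (12.5% against 9.93%) and 0 the ERR motif (0.466% of all genes). At least 1 of the 4 motifs was present in 16 of the 32 subunit genes (50.0% against 16.9%) and in 4 of the 7 assembly factor genes with a sequence. A match is a description of the letters and not evidence of a bound site.

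At 3 days after MI, nearly all complex I genes were lower than after sham surgery in PKM2fl/fl hearts. Of the 39 subunit genes, 37 were called lower, each by at least 2-fold, and 1 was called higher. Over all genes tested, 22.0% were called lower, 10.6% lower by at least 2-fold and 22.8% higher. The median difference of the 39 subunit genes was -1.50, and that of all genes was 0.00. In the 37 genes called lower, the mean over the MI libraries was 27.8% to 46.6% of the sham mean, with a median of 36.7%. Every MI library lay below every sham library for 38 of the 39 subunit genes and for 7 of the 8 assembly factor genes, as was the case for 29.0% of all genes.

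**Figure D1:**
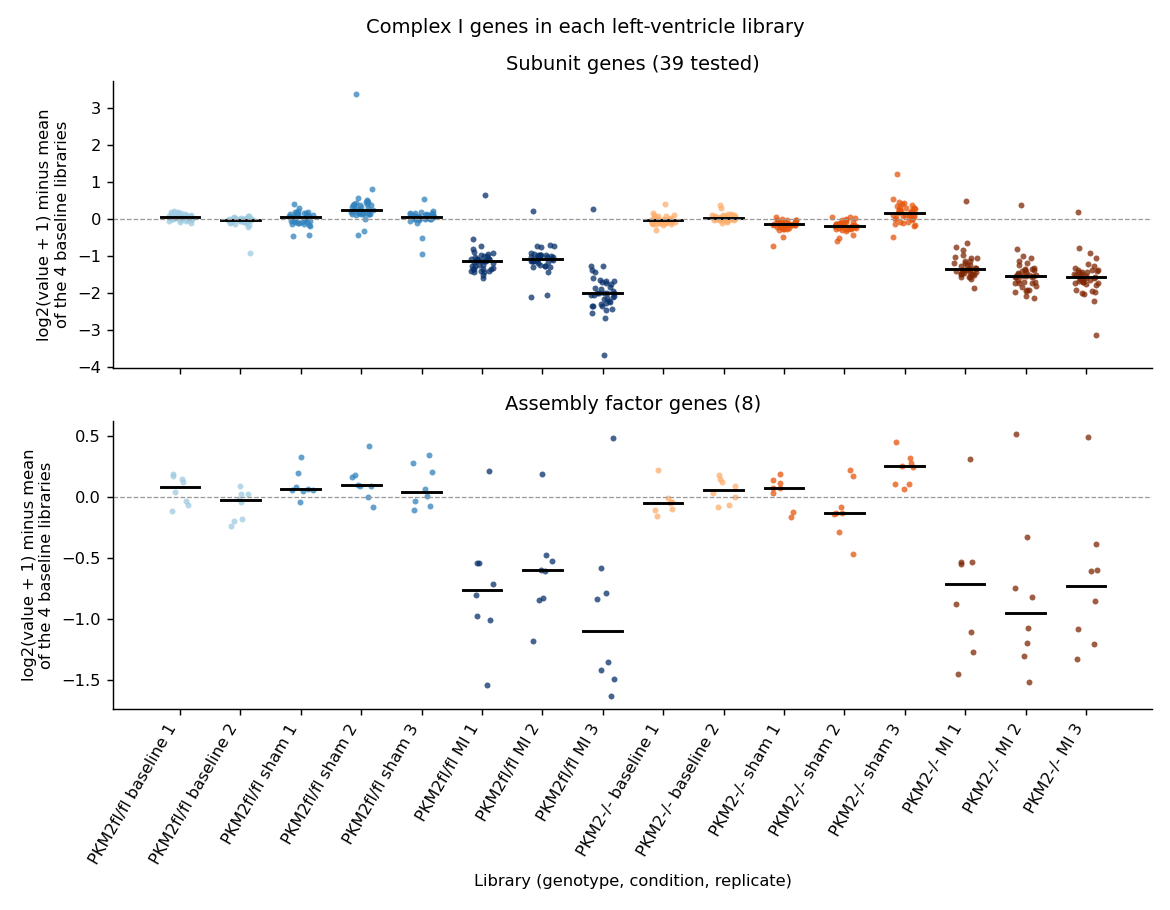
Each point is 1 gene in 1 library, plotted as log2(normalized count + 1) minus the mean of the 4 baseline libraries (vertical axis, log2), with libraries along the horizontal axis, subunit genes above and assembly factor genes below. Black lines are library medians, which for the subunits lie between -0.19 and 0.24 in the sham libraries and between -2.01 and -1.10 in the MI libraries, with the lowest in PKM2fl/fl MI 3.

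*Ndufv1*, the subunit that binds NADH, had 9368, 9227 and 8548 normalized counts in the PKM2fl/fl sham libraries and 2945, 3822 and 1463 in the MI libraries. All 3 MI libraries were far below the sham libraries, and the third was the lowest. The difference was -1.83 ± 0.31 (adjusted p = 0.00253, limma). The PKM2-/- hearts had 8003, 8704 and 7709 after sham surgery and 2865, 1907 and 2082 after MI. Here the 3 MI libraries lay closer together, and the difference was -1.85 ± 0.15 (adjusted p = 4.98e-06, limma). At baseline it had 8918 and 8419 in PKM2fl/fl and 7614 and 9000 in PKM2-/- hearts, so the genotypes overlapped.

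*Ndufv2*, the partner of *Ndufv1* that carries an iron-sulfur cluster, had a smaller difference. It had 8988, 10795 and 9985 normalized counts after sham surgery and 5008, 5039 and 3169 after MI in PKM2fl/fl hearts. *Ndufv2* in PKM2-/- hearts was at 8522, 8320 and 12339 after sham surgery and at 3838, 3433 and 3546 after MI. The groups did not overlap in either genotype, and the differences were -1.20 ± 0.20 (adjusted p = 0.00225, limma) and -1.41 ± 0.15 (adjusted p = 3.39e-05, limma). Baseline values were 9672 and 9952 in PKM2fl/fl and 9901 and 10114 in PKM2-/- hearts.

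*Ndufs1*, the core subunit of the N module with several iron-sulfur clusters, was among the most abundant by count. Its values in PKM2fl/fl hearts were 13278, 12903 and 11677 after sham surgery and 4331, 5524 and 2919 after MI. The PKM2-/- values were 9943, 11737 and 10539 after sham surgery and 3958, 2796 and 2996 after MI. Each MI library was below each sham library of its genotype, with differences of -1.61 ± 0.22 (adjusted p = 0.0011, limma) and -1.74 ± 0.14 (adjusted p = 5.63e-06, limma). The baseline values, 12010 and 12218 in PKM2fl/fl and 11087 and 11985 in PKM2-/- hearts, lay near those of the sham libraries.

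In the Q module, *Ndufs7*, which holds the iron-sulfur cluster next to ubiquinone, had 4712, 5219 and 4887 after sham surgery and 2087, 1724 and 907 after MI in PKM2fl/fl hearts. For PKM2-/- hearts the values were 4315, 4065 and 5863 after sham surgery and 1848, 1230 and 1375 after MI. The MI libraries were again all lower, with differences of -1.73 ± 0.27 (adjusted p = 0.00189, limma) and -1.68 ± 0.17 (adjusted p = 2.75e-05, limma). *Ndufs8*, which carries a further pair of iron-sulfur clusters, had 2765, 3151 and 2943 after sham surgery and 1442, 1493 and 871 after MI in PKM2fl/fl hearts. Its values in PKM2-/- hearts were 2455, 2493 and 3352 after sham surgery and 1003, 1017 and 978 after MI. Neither genotype showed overlap, and the differences were -1.26 ± 0.20 (adjusted p = 0.00207, limma) and -1.45 ± 0.13 (adjusted p = 8.53e-06, limma). At baseline *Ndufs7* had 4805 and 4653 in PKM2fl/fl and 4150 and 5032 in PKM2-/- hearts, and *Ndufs8* had 3145 and 2930, and 2832 and 2954.

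*Ndufs3*, another core subunit of the Q module, stood apart. Its normalized counts were 42, 618 and 54 in the PKM2fl/fl sham libraries and 40, 13 and 3.7 in the MI libraries. The sham 2 library was far above all others, and *Ndufs3* was the 1 gene tested that in this library exceeded every other library by more than 3-fold. *Ndufs3* in PKM2-/- hearts had 35, 61 and 60 after sham surgery and 23, 17 and 5.8 after MI, and the baseline values were 57 and 50 in PKM2fl/fl and 55 and 77 in PKM2-/- hearts. The difference was not called in PKM2fl/fl hearts (-3.04 ± 1.09, adjusted p = 0.052, limma) and was called in PKM2-/- hearts (-1.86 ± 0.49, adjusted p = 0.00941, limma). Without the sham 2 library the difference in PKM2fl/fl hearts was -1.82 ± 0.83 (adjusted p = 0.128, limma), and leaving out sham 1 or MI 1 instead brought the adjusted p to 0.0466 and 0.0371 (limma), so the call turned on single libraries. It was also made under total count scaling (-3.20), and with rRNA-related loci left out of the totals (-2.95, adjusted p = 0.028, limma). The same held in 1 fit of all 16 libraries (-3.04, adjusted p = 0.00875, limma) and with the replicate block (-3.04, adjusted p = 0.0377, limma). The edgeR test called it too (-3.77, adjusted p = 0.0356, edgeR), while DESeq2 gave no adjusted p. The gene lies on chromosome 2, from 90894627 to 90904721 in mm10 coordinates on the reverse strand, and overlaps *Kbtbd4* on the other strand. Its neighbours, looked at after its values were seen, were low as well, with medians of 0 normalized counts for *Kbtbd4*, 28.1 for *Ptpmt1* and 9.52 for *Celf1*, whereas *Mtch2* had 756. How the counting handled this locus was not tested, so the level of *Ndufs3* is uncertain.

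**Figure D2:**
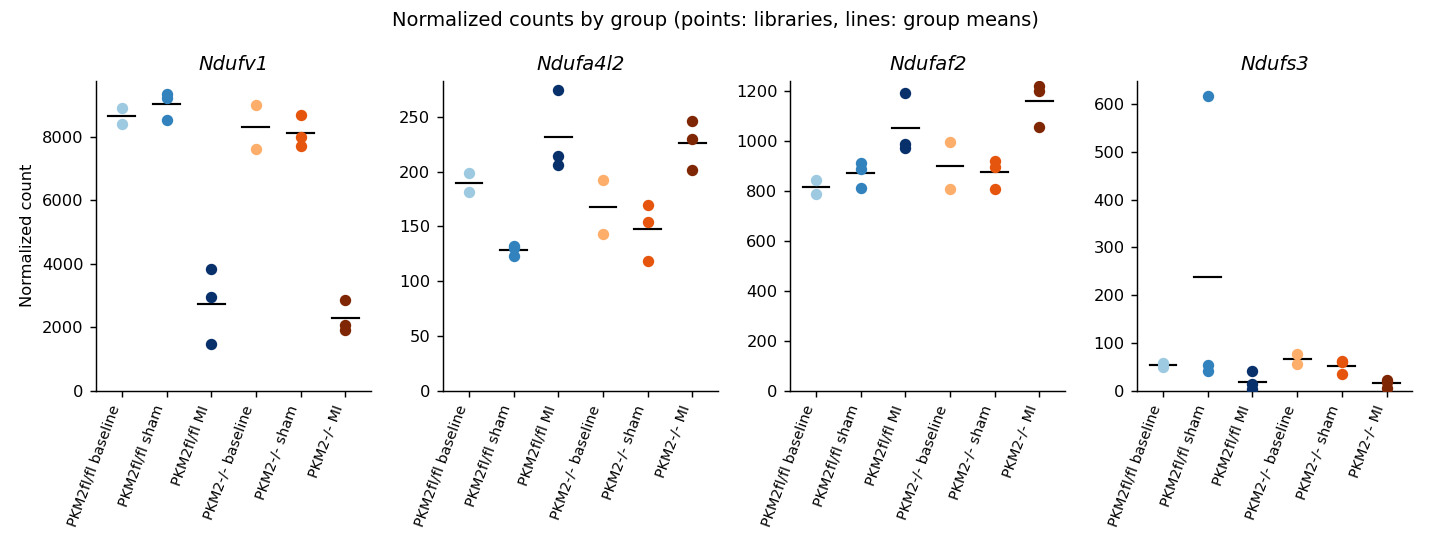
Normalized counts (vertical axes, linear and starting at 0) of *Ndufv1*, *Ndufa4l2*, *Ndufaf2* and *Ndufs3* in the 6 groups along the horizontal axis, with 1 point per library and a line at each group mean. *Ndufv1* falls in both MI groups, *Ndufa4l2* and *Ndufaf2* are higher in them than in the sham groups, and *Ndufs3* has a lone value of 618 in PKM2fl/fl sham 2.

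Besides *Ndufv1*, the subunit genes that fell most in PKM2fl/fl hearts were *Ndufs6*, *Ndufs6b*, *Ndufc1* and *Ndufa3*. *Ndufs6*, a zinc-binding accessory subunit of the N module whose upstream sequence is printed above, had 3458, 4248 and 3464 normalized counts after sham surgery and 1275, 1326 and 504 after MI. The MI libraries held about the same low level except for MI 3, which was lower still, and the difference was -1.97 ± 0.34 (adjusted p = 0.00279, limma). *Ndufs6* in PKM2-/- hearts was at 3013, 3029 and 3455 after sham surgery and 1158, 985 and 972 after MI, a difference of -1.61 ± 0.11 (adjusted p = 1.91e-06, limma). Its processed paralog *Ndufs6b* had 182, 293 and 240 after sham surgery and 62, 100 and 38 after MI in PKM2fl/fl hearts, and 151, 116 and 118 after sham surgery and 61, 46 and 43 after MI in PKM2-/- hearts. It moved as its parent did, by -1.90 ± 0.34 (adjusted p = 0.00326, limma) and -1.35 ± 0.23 (adjusted p = 0.000728, limma), and because the 2 genes are near copies, reads may have been shared between them.

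*Ndufc1*, a small subunit of the proximal membrane arm, had 3300, 3925 and 3028 normalized counts after sham surgery and 1155, 1248 and 580 after MI in PKM2fl/fl hearts. Among PKM2-/- hearts it had 2916, 2758 and 3599 after sham surgery and 1421, 1166 and 1082 after MI. The groups were apart in both genotypes, with differences of -1.85 ± 0.27 (adjusted p = 0.00147, limma) and -1.34 ± 0.13 (adjusted p = 2.23e-05, limma). *Ndufa3*, also of the proximal membrane arm, had 3690, 5148 and 3727 after sham surgery and 1481, 1587 and 682 after MI in PKM2fl/fl hearts, and 3103, 2757 and 3742 against 1245, 1232 and 1102 in PKM2-/- hearts. Its differences were -1.82 ± 0.31 (adjusted p = 0.00261, limma) and -1.41 ± 0.12 (adjusted p = 8.47e-06, limma).

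The fall was spread over the whole enzyme. In PKM2fl/fl hearts all 10 genes of the N module were called lower (median -1.51), 5 of 6 of the Q module (median -1.73), all 9 of the proximal membrane arm (median -1.51) and all 10 of the distal membrane arm (median -1.48). In PKM2-/- hearts all members of the 4 modules were called lower. The member of the enzyme with the least negative difference in PKM2fl/fl hearts was *Ndufs4*, an accessory subunit of the N module, at -1.12 ± 0.15 (adjusted p = 0.00111, limma). Among PKM2-/- hearts it was *Ndufc2* of the proximal membrane arm, at -0.93 ± 0.12 (adjusted p = 0.000122, limma), the 1 called gene there that fell by less than 2-fold. The paralog *Ndufb4c*, at a group mean of 29.5 normalized counts or less, was called lower in PKM2fl/fl hearts (-1.21 ± 0.42, adjusted p = 0.0467, limma) and not in PKM2-/- hearts (-1.09 ± 0.45, adjusted p = 0.063, limma). The call in PKM2fl/fl hearts was lost when any 1 of the 6 libraries was left out, at differences of -1.45 to -1.03, and also with the replicate block. DESeq2 did not call it either (-1.35, adjusted p = 0.0718, DESeq2), while edgeR did (adjusted p = 0.0369, edgeR). The number of subunit genes called lower there was 36 with a pseudocount of 0.1 and 34 with no filter.

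In PKM2-/- hearts 37 of 39 subunit genes were called lower after MI, 36 of them by at least 2-fold, and 1 was called higher. Over all genes 26.6% were called lower, 14.0% lower by at least 2-fold and 27.4% higher. The median difference was -1.41 for the subunits and 0.01 for all genes, and the MI mean of the 37 genes was 28.1% to 52.3% of the sham mean. Every MI library was below every sham library for 38 of 39 subunit genes and 7 of 8 assembly factor genes, against 30.6% of all genes. Of the subunit genes, 36 were called lower in both genotypes, *Ndufb4c* in PKM2fl/fl only and *Ndufs3* in PKM2-/- only. Across all libraries, the 6 MI hearts were below all 10 other hearts for 36 of the 39 subunit genes and 7 of the 8 assembly factor genes, against 18.3% of all genes. The exceptions were *Ndufa4l2*, *Ndufb4c*, *Ndufs3* and *Ndufaf2*.

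**Figure D3:**
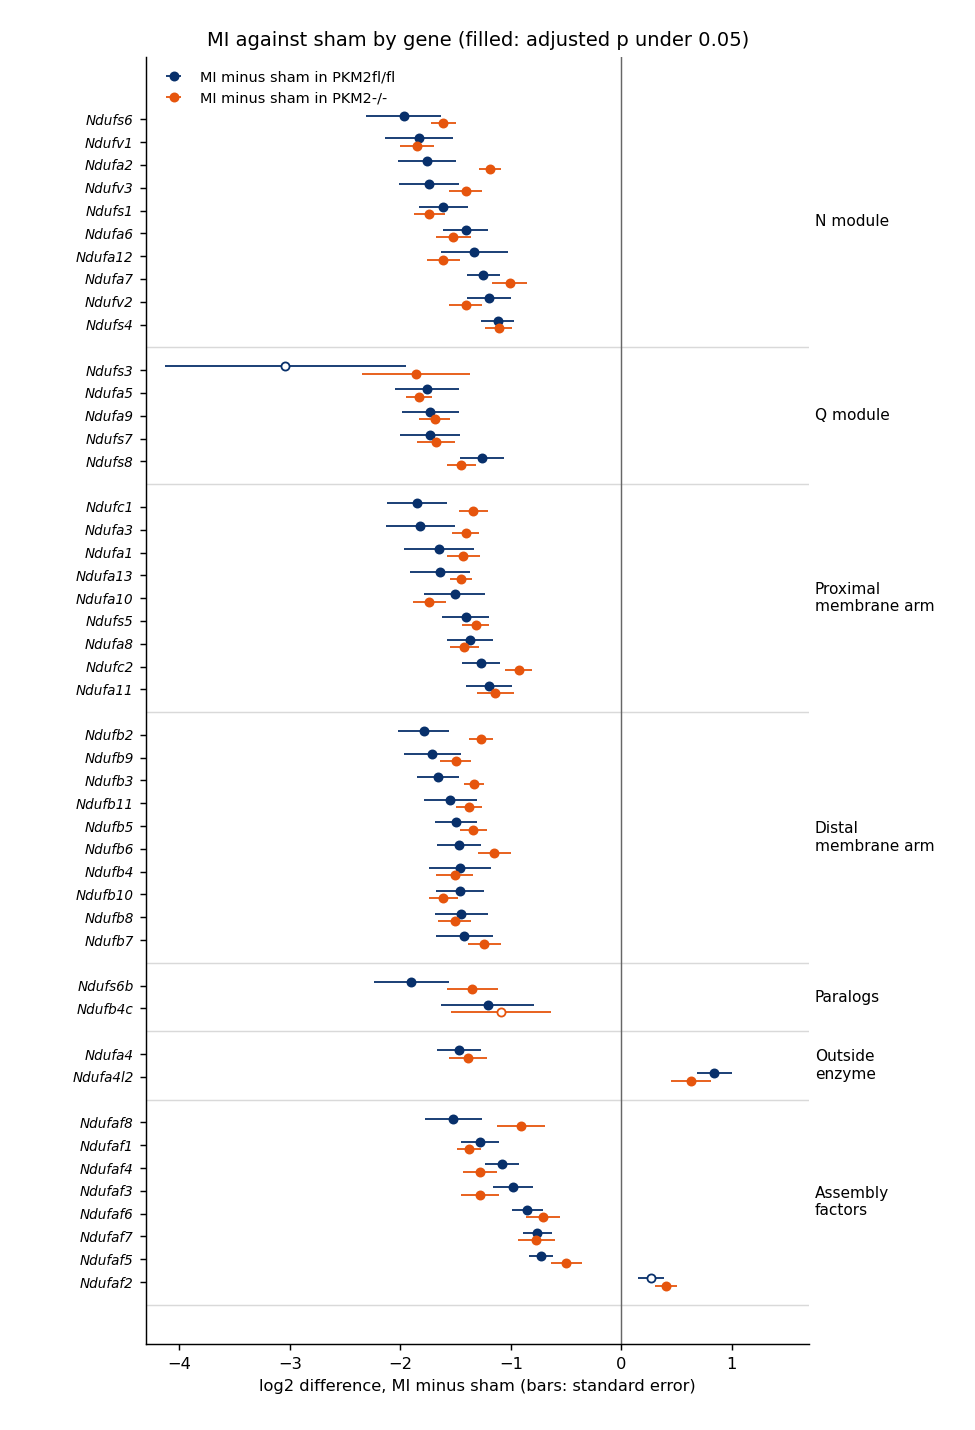
Difference between MI and sham (horizontal axis, log2) for the tested genes except 1 that is not reported, with genes grouped by module along the vertical axis, blue for PKM2fl/fl, orange for PKM2-/-, bars for the standard error and filled points for an adjusted p under 0.05 (limma). All points lie left of 0 except those of *Ndufa4l2* and *Ndufaf2*, and the standard errors are mostly wider in PKM2fl/fl hearts.

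The pair of Nduf genes that do not code for parts of the enzyme moved in opposite directions. *Ndufa4*, a subunit of complex IV, had 11889, 15109 and 12723 normalized counts after sham surgery and 5424, 5643 and 3542 after MI in PKM2fl/fl hearts. *Ndufa4* in PKM2-/- hearts had 9553, 8610 and 13944 after sham surgery and 4248, 3986 and 3793 after MI. Its differences were -1.47 ± 0.20 (adjusted p = 0.00111, limma) and -1.39 ± 0.17 (adjusted p = 7.04e-05, limma), with no overlap between the groups. *Ndufa4l2*, a target of hypoxia-inducible factor that is known to lower mitochondrial oxygen use, had 132, 130 and 123 after sham surgery and 275, 206 and 214 after MI in PKM2fl/fl hearts. *Ndufa4l2* in PKM2-/- hearts had 170, 118 and 154 after sham surgery and 246, 230 and 202 after MI. All MI libraries were above all sham libraries, by 0.84 ± 0.16 (adjusted p = 0.00443, limma) and 0.63 ± 0.18 (adjusted p = 0.0147, limma). The call in PKM2fl/fl hearts was lost under total count scaling (0.66), and the call in PKM2-/- hearts without PKM2-/- MI 2 (0.61) or with no filter on low values (0.63).

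*Ndufa4l2* was the 1 subunit gene of 39 that was higher in all 6 MI hearts than in all 10 others, as were 19.0% of all genes. Its margin over the baseline hearts was small, since these had 199 and 181 in PKM2fl/fl and 143 and 192 in PKM2-/-. Its difference between sham and baseline hearts over both genotypes was -0.38 ± 0.14, which was not called (adjusted p = 0.145, limma). The gene lies on chromosome 10, from 127509274 to 127517154 on the forward strand in mm10 coordinates. It overlaps *Shmt2* on the other strand, which had 415 to 647 normalized counts, and the strand setting of the counting is not given in the sources used here. Reads from the 2 genes can therefore not be told apart where they overlap.

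The assembly factor genes were lower too, with smaller differences than the subunit genes. In PKM2fl/fl hearts 7 of 8 were called lower after MI, 3 of them by at least 2-fold, and the median difference was -0.91. In PKM2-/- hearts 7 were called lower, 3 by at least 2-fold, and 1 was called higher, with a median of -0.84. The 7 fallen genes kept 36.7% to 60.3% of their sham mean in PKM2fl/fl hearts (median 51.5%) and 38.3% to 70.2% in PKM2-/- hearts (median 51.4%). The median over the 8 genes against the baseline mean was -0.82 ± 0.25 in PKM2fl/fl MI hearts and -0.80 ± 0.13 in PKM2-/- MI hearts (SD, n = 3), where the subunit medians were -1.42 ± 0.51 and -1.49 ± 0.11. The gap between subunits and assembly factors was not tested.

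*Ndufaf8*, a partner of the *Ndufs7*-modifying enzyme *Ndufaf5*, had 372, 396 and 359 normalized counts after sham surgery and 102, 207 and 105 after MI in PKM2fl/fl hearts, and 339, 214 and 407 against 161, 168 and 164 in PKM2-/- hearts. The MI libraries were lower in both, by -1.52 ± 0.26 (adjusted p = 0.00284, limma) and -0.91 ± 0.22 (adjusted p = 0.0057, limma). *Ndufaf1*, which acts in building the membrane arm, had 750, 715 and 702 after sham surgery and 357, 317 and 232 after MI in PKM2fl/fl hearts, and 789, 833 and 750 against 332, 292 and 286 in PKM2-/- hearts. With little spread in the sham libraries, its differences were -1.28 ± 0.17 (adjusted p = 0.000878, limma) and -1.38 ± 0.11 (adjusted p = 5.98e-06, limma). *Ndufaf4*, which works with *Ndufaf3* on the Q module, had 1340, 1356 and 1177 after sham surgery and 643, 714 and 496 after MI in PKM2fl/fl hearts, and 1159, 1156 and 1510 against 526, 443 and 599 in PKM2-/- hearts. It differed by -1.08 ± 0.15 (adjusted p = 0.00119, limma) and -1.28 ± 0.15 (adjusted p = 4.92e-05, limma). The other fallen factors were *Ndufaf3*, *Ndufaf5*, *Ndufaf6* and *Ndufaf7*, with differences between -0.98 and -0.73 in PKM2fl/fl and between -1.28 and -0.50 in PKM2-/- hearts, where *Ndufaf5* alone changed sign (0.01) when libraries were scaled to their total reads. Under that scaling 2 of the 8 were called lower there, and the median of all genes was 0.52.

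*Ndufaf2*, a paralog of the subunit *Ndufa12* that occupies its place in a late assembly intermediate, ran the other way. It had 887, 913 and 814 normalized counts after sham surgery and 989, 972 and 1194 after MI in PKM2fl/fl hearts, and 897, 810 and 921 against 1059, 1220 and 1200 in PKM2-/- hearts. All MI libraries were above the sham libraries of their genotype. The difference was not called in PKM2fl/fl hearts (0.27 ± 0.12, adjusted p = 0.103, limma) and was called in PKM2-/- hearts (0.40 ± 0.10, adjusted p = 0.00792, limma). The genotype by MI interaction, which compares these 2 differences, was 0.14 ± 0.15 (adjusted p = 0.86, limma). At baseline *Ndufaf2* had 790 and 844 in PKM2fl/fl and 995 and 808 in PKM2-/- hearts, so 1 baseline heart lay above the lowest MI values. *Ndufa12* itself had a difference of -1.33 in PKM2fl/fl and -1.61 in PKM2-/- hearts and was called lower in both.

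Levels of the subunit genes varied together from library to library. Over the 16 libraries, the Pearson correlation of log2 values had a median of 0.98 over the 741 pairs of tested subunit genes, and 84.9% of pairs were above 0.9. After the group means were removed, the median was 0.85 and 29.4% of pairs were above 0.9. The points share libraries, size factors and tissue make-up, so these are descriptions only. *Ndufb11*, of the distal membrane arm, had the highest median correlation with the other subunit genes (0.99). *Ndufs3* (0.81), *Ndufb4c* (0.65) and *Ndufa4l2* (-0.72) had the lowest, and among the assembly factors the values ran from 0.97 for *Ndufaf4* to 0.86 for *Ndufaf5*, with -0.85 for *Ndufaf2*.

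The spread within the PKM2fl/fl MI group came largely from 1 heart. PKM2fl/fl MI 3 was the lowest of the 3 PKM2fl/fl MI libraries for 37 of the 39 subunit genes and 5 of the 8 assembly factor genes. The same count was not made over all genes. Its subunit median against the baseline mean was -2.01, compared with -1.14 and -1.10 in the other PKM2fl/fl MI hearts and -1.37, -1.54 and -1.57 in the PKM2-/- MI hearts. The median of the cardiomyocyte markers was also low in that heart, at -2.41 against -1.31 and -1.19.

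With limma and all libraries, no complex I gene was called different between the genotypes. At baseline the median difference of the 39 subunit genes, PKM2-/- minus PKM2fl/fl, was -0.02, and 0 subunit and 0 assembly factor genes were called by limma, edgeR or DESeq2. Over all genes 0.204% were called by limma. At an unadjusted p under 0.05 there were 2 of 39 subunit genes, against 1000 of 20576 over all genes. The 2 were *Ndufa1* of the proximal membrane arm (0.20 ± 0.08) and *Ndufb3* of the distal membrane arm (-0.23 ± 0.08), both with an adjusted p of 0.919 (limma). For the abundant core subunits, such as *Ndufv1* (-0.07 ± 0.10) and *Ndufs1* (-0.07 ± 0.09), the standard error was 0.09 to 0.10 with 2 hearts per genotype. The result depended on scaling: with libraries scaled to their total reads, 36 subunit genes were called lower in PKM2-/- hearts (median -0.61), as were 52.9% of all genes, and the median of all genes was -0.59. *Ndufa1* then changed sign, to -0.39. The ribosomal RNA shares given above, mostly mitochondrial at baseline, differ between these groups. With those loci left out of the totals, 0 subunit genes were called (median -0.17, where all genes had -0.15).

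After sham surgery, 34 of 39 subunit genes were lower in PKM2-/- than in PKM2fl/fl hearts, with a median of -0.21. Over all genes, 10507 of 20576 were lower, with a median of -0.01. Complexes III, IV and V leaned the same way, with 7 of 9, 10 of 10 and 13 of 14 genes lower. Their medians were -0.15, -0.24 and -0.17. By limma or edgeR, 0 complex I subunit genes were called (all genes with limma, 0.0437%). There were 8 subunit genes with an unadjusted p under 0.05, against 2207 of 20576 over all genes (limma). This number turned on single hearts. It was 23 without PKM2-/- sham 3 (2848 over all genes). Without PKM2fl/fl sham 2 or PKM2-/- sham 1 it was 3 (1622 and 1913 over all genes). With 1 library left out the subunit median ran from -0.28 to -0.11, and 0 subunit genes were called. DESeq2 called 2 subunit genes lower, and 0.821% of all genes, and these 2 were looked at after their values were seen. *Ndufa2*, an accessory subunit of the N module, had 3477, 3669 and 3039 normalized counts in PKM2fl/fl and 2455, 2172 and 2656 in PKM2-/- sham hearts, without overlap. Its difference was -0.48 ± 0.11 (adjusted p = 0.185 with limma and 0.00953 with DESeq2). The paralog *Ndufs6b*, whose values are given above, differed by -0.87 ± 0.20 (adjusted p = 0.19 with limma and 0.0101 with DESeq2). Total count scaling with limma also called 2 subunit genes lower, and 0.885% of all genes. The median of the 8 assembly factor genes was -0.02.

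After MI, the median difference between genotypes was -0.06 for the subunits, or 0.31 with libraries scaled to their total reads where all genes had 0.36, and 0.00 for the assembly factors. Limma, edgeR and DESeq2 each called 0 of them (all genes with limma, 0.0292%). By limma, 0 subunit genes had an unadjusted p under 0.05, against 2621 of 20576 over all genes. Without PKM2fl/fl MI 3, however, 7 subunit genes were called lower in PKM2-/- hearts, against 4.30% of all genes, and are named here after their values were seen. These were *Ndufs8* (-0.55 ± 0.09, adjusted p = 0.0145), *Ndufv2* (-0.48 ± 0.10, adjusted p = 0.0253), *Ndufa5* (-0.69 ± 0.13, adjusted p = 0.0168), *Ndufa12* (-0.59 ± 0.11, adjusted p = 0.0199), *Ndufa6* (-0.47 ± 0.11, adjusted p = 0.0358), *Ndufb10* (-0.50 ± 0.10, adjusted p = 0.0263) and *Ndufa4* (-0.47 ± 0.10, adjusted p = 0.0288), all from limma. They come from the N module, the Q module, the distal membrane arm and, with *Ndufa4*, complex IV. With all 3 hearts the differences of *Ndufs8* and *Ndufv2* were -0.30 ± 0.20 and -0.26 ± 0.18.

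The test of whether MI acted differently in the 2 genotypes called 0 complex I genes. The median of this interaction was 0.10 over the subunits, and the adjusted p of every subunit gene was 0.728 or more (limma). Over all genes limma and edgeR called 0 (percentage called, 0), with 1462 at an unadjusted p under 0.05 by limma, while DESeq2 called 16 lower and 25 higher, none of them a complex I gene. Without PKM2fl/fl MI 3, limma called 203 genes lower and 39 higher in the interaction, again with 0 complex I genes. With 1 library left out, the subunit median of the interaction ran from -0.17 to 0.27. For *Ndufv1* the interaction was -0.02 ± 0.38, for *Ndufs1* -0.12 ± 0.28 and for *Ndufa4l2* -0.21 ± 0.24, so a difference of the size of these errors was not detectable.

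**Figure D4:**
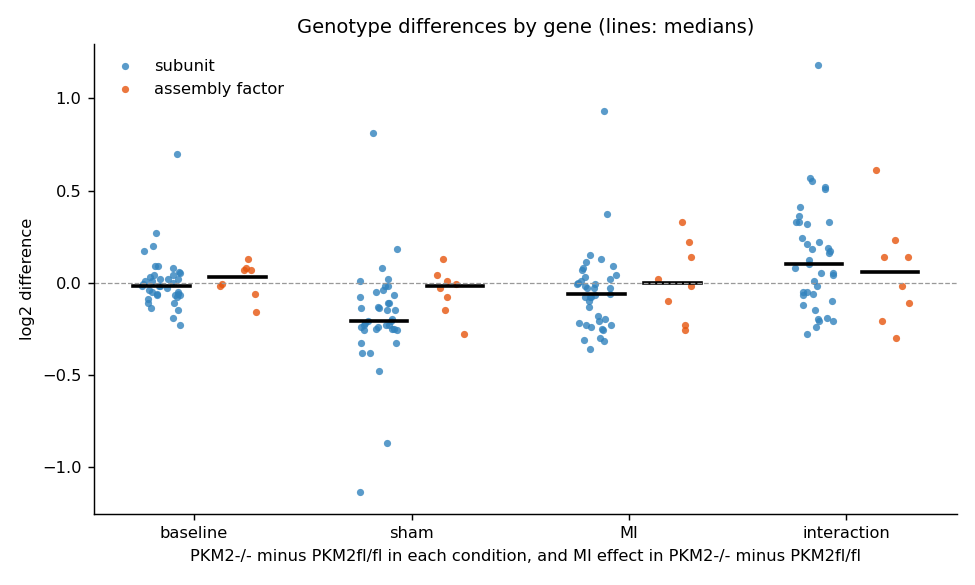
Difference between the genotypes (vertical axis, log2) for each tested subunit gene (blue) and assembly factor gene (orange) at baseline, after sham surgery and after MI, and the difference of the MI effect between genotypes (interaction), with lines at the medians. Subunit medians are -0.02, -0.21, -0.06 and 0.10, and no point was called (limma).

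Sham surgery by itself was not followed by a detected change in these genes. Compared with baseline over both genotypes, the median difference was 0.02 for the subunits and 0.08 for the assembly factors, and 0 were called by limma, edgeR or DESeq2, against 6.43% of all genes called by limma. The single subunit gene with an unadjusted p under 0.05 was *Ndufa4l2*, against 4454 of 20576 over all genes (limma).

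Most genes that act with these members were lower after MI as well. Of the 7 mitochondrially encoded complex I subunits, 4 were called lower after MI in PKM2fl/fl and 6 in PKM2-/- hearts, with medians of -1.55 and -1.66. An example is *mt-Nd3*, a core subunit of the membrane arm, at -2.04 ± 0.27 (adjusted p = 0.000991, limma) and -2.59 ± 0.43 (adjusted p = 0.000645, limma). All 12 assembly factors with other names that are in the table were called lower in both genotypes, with medians of -0.86 and -0.96, near those of the Ndufaf genes. They include *Acad9*, a partner of *Ndufaf1*, at -0.68 ± 0.10 (adjusted p = 0.00169, limma) and -0.49 ± 0.11 (adjusted p = 0.00483, limma). Of 12 regulators of mitochondrial biogenesis, 9 were called lower in each genotype (medians -1.23 and -1.53), and *Nrf1*, named after its value was seen, was called higher in PKM2fl/fl hearts. *Ppargc1a*, which encodes the coactivator PGC-1α, had differences of -1.92 ± 0.32 (adjusted p = 0.00237, limma) and -2.72 ± 0.36 (adjusted p = 0.000131, limma). *Esrrg*, an estrogen-related receptor, had differences of -1.53 ± 0.24 (adjusted p = 0.00175, limma) and -2.35 ± 0.13 (adjusted p = 9.14e-07, limma).

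The fall was not particular to complex I. After MI every listed gene of complex II (4), complex III (9), complex IV (10) and complex V (14 in the table) was called lower in both genotypes, with medians of -1.48, -1.48, -1.70 and -1.51 in PKM2fl/fl hearts and -1.58, -1.53, -1.43 and -1.35 in PKM2-/- hearts. In every library the median of the complex I subunits, taken against baseline, lay within -0.03 to 0.06 of the pooled median of complexes III to V. The genes outside the listed members whose levels were most like the subunit median over the 16 libraries were *Uqcrq* of complex III (r = 0.996), the mitochondrial thioredoxin *Txn2* (r = 0.995) and *Uqcrh* of complex III (r = 0.995).

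Markers of several cell types moved with MI as well. Of 12 cardiomyocyte markers, 10 were called lower in PKM2fl/fl and 12 in PKM2-/- hearts (medians -1.70 and -2.02), and none was at 0 in any library. Their summed normalized counts were 1626110 to 1789234 after sham surgery and 333724 to 723279 after MI in PKM2fl/fl hearts, and 1451667 to 1786495 and 329165 to 433852 in PKM2-/- hearts. Of 10 leukocyte markers tested, 7 and 9 were called higher, with sums of 5340 to 10929 after sham surgery and 21114 to 37830 after MI in PKM2fl/fl hearts, and 7622 to 9397 and 29977 to 34392 in PKM2-/- hearts. The sums include all 11 leukocyte markers in the table, of which only *Cd3e* was at 0 in a library. Of 8 fibroblast markers, 6 and 5 were called higher and *Dcn* lower, with sums of 25357 to 46994 and 164522 to 178375 in PKM2fl/fl hearts, and 28748 to 46967 and 143683 to 198375 in PKM2-/- hearts. Of 6 endothelial markers, 0 and 2 were called lower and 1 and 1 higher (medians 0.00 and 0.04), with Kdr at -0.57 ± 0.10 in PKM2-/- hearts and Cdh5 at 0.76 ± 0.11 and 0.75 ± 0.11, and with sums of 19068 to 25992 over the sham and MI libraries. The part of these shifts in the fall of the complex I genes was not tested.

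Set beside the cardiomyocyte markers, the subunit genes had smaller differences. The subunit median minus the marker median, both against baseline, was -0.16 to 0.21 in the sham libraries, 0.10 to 0.40 in the PKM2fl/fl MI libraries and 0.51 to 0.75 in the PKM2-/- MI libraries. All 3 PKM2-/- MI hearts were thus above all 3 PKM2fl/fl MI hearts on this difference, which is given as a description with no test. The marker medians were -1.88, -2.24 and -2.32 in the PKM2-/- MI hearts. Averaged by group, the marker medians were -1.64 in PKM2fl/fl and -2.15 in PKM2-/- MI hearts, and the subunit medians -1.42 and -1.49. Complexes III, IV and V were at -1.35, -1.56 and -1.46 in PKM2fl/fl MI hearts. In PKM2-/- MI hearts they were at -1.52, -1.53 and -1.44, so the gap to the markers was not particular to complex I.

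**Figure D5:**
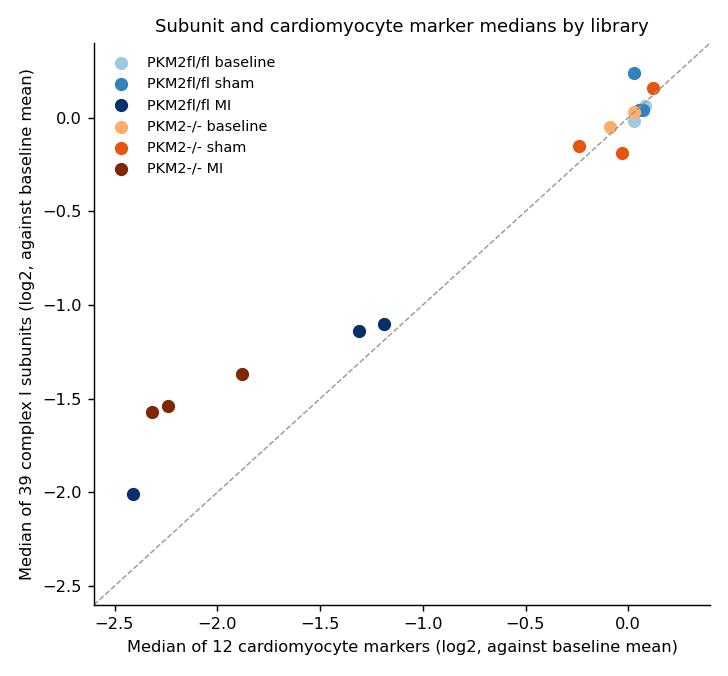
Median of the 39 subunit genes (vertical axis) against the median of 12 cardiomyocyte markers (horizontal axis) in each library, both in log2 units against the baseline mean, coloured by group, with a dashed line of equality. Baseline and sham libraries lie near 0, and the 6 MI libraries lie at lower left and above the line, by 0.10 to 0.40 in PKM2fl/fl and 0.51 to 0.75 in PKM2-/-.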

How the data were processed

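Left-ventricle RNA was depleted of rRNA and sequenced in paired ends. Trimming was done by the authors with PRINSEQ, alignment to mm10 with HISAT2, counting per gene with featureCounts and normalization with DESeq2. The authors deposited 1 table of normalized signal, which is the read count of each gene divided by the size factor of the library, for 55492 genes and 16 libraries. It also holds their fold change, p-value and related columns for the baseline comparison, which were not used. Tool versions and the strand and multi-mapping settings are not given in the sources used here. Groups follow the sample labels.

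Each library's values were whole multiples of 1 step (100% within 0.1 of a whole number), from which reads were recovered for library sizes and count tests. Depth was 20623769 to 71855101 reads, and the counts behind low genes such as *Ndufs3* limit precision most. limma 3.58.1 (trend, in R 4.3.3) was fitted to log2(value + 1) of the libraries compared, for the 20576 genes whose mean reached 10, with Benjamini-Hochberg adjustment over all of them. The call was an adjusted p under 0.05. Sham against baseline had genotype as a term. Alternatives were total count scaling with and without rRNA-related loci, TMM factors, a pseudocount of 0.1, no filter, edgeR 4.0.16 and DESeq2 1.42.0 on the recovered reads, 1 fit of all 16 libraries, the replicate number as a block, and each library left out in turn. The fits were tested on simulated data. Tables were prepared with Python 3.11.15, numpy 2.4.6 and pandas 2.3.3.

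Values per library are given for core subunits, the 5 subunit and 3 assembly factor genes with the most negative difference among those called after MI in PKM2fl/fl hearts, members called the other way there, and *Ndufa4* and *Ndufa4l2*. Of the genes this rule names, 1 is not reported here. Any member called between genotypes would have been added. Other lists are shown by at most 4 genes with the smallest adjusted p there. The members and lists were chosen with earlier results of these data known. Transcript lengths are from GENCODE M39, in which all 48 members were found, and gene positions and promoters from RefSeq (GRCm38.p6), in which 39 members had a promoter sequence. Exons of 31 members overlap another gene, those of 7 on the same strand. *Ndufa4l3*, *Coa1*, *Atp5f1* and 7 rRNA-related loci of the lists were not found in the table.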

Additional observations from a re-analysis of the deposited data

How the results depend on the processing

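Across the settings, 35 to 39 subunit genes were called after MI in PKM2fl/fl hearts and 30 to 39 in PKM2-/- hearts, the 30 under total count scaling. Leaving out 1 library gave 37 to 38 in both, with medians of -1.65 to -1.25 and -1.49 to -1.29. Total count scaling shifted the median of all genes to -0.18 and 0.52 in these comparisons, and the subunit median in PKM2-/- hearts to -0.90. Without rRNA-related loci the subunit median in PKM2-/- hearts was -1.07, where all genes had 0.35. The share of higher genes among all called was 50.9% and 50.8%, 41.8% and 79.1% under total count scaling, and 60.8% and 71.3% without the rRNA-related loci. Under total count scaling *Ndufaf5* had a difference of 0.01 in PKM2-/- hearts, the 1 reversal among single genes compared between MI and sham, of which 1360 values kept direction and call, 38 lost the call and 10, all of *Ndufs3* and *Ndufb4c*, gained it. Signs of single genes between genotypes were not counted. The interaction median became 0.77 under that scaling, where all genes had 0.67. Between genotypes, total count scaling called 36 subunit genes at baseline, with a median of -0.61 where all genes had -0.59. Without rRNA-related loci the baseline median was -0.17, where all genes had -0.15. With the authors' scaling and 1 library left out, it was -0.07 to 0.03. After sham surgery total count scaling called 2, as did DESeq2. The median there was -0.53 under total count scaling, where all genes had -0.33 and 0.885% of them were called lower. After MI, leaving out 1 library gave 0 to 7 calls, the 7 without PKM2fl/fl MI replicate 3, and total count scaling moved the median from -0.06 to 0.31. Every replicate-numbered pair correlated by -0.09 to 0.13, which gave no sign of pairing by number. With groups of 2 or 3 libraries this cannot exclude it. With the replicate block the 7 comparisons called 38, 38, 0, 0, 0, 0 and 0 subunit genes, the same numbers as without it, but in PKM2fl/fl hearts *Ndufs3* gained its call and *Ndufb4c* lost it. Depth limits *Ndufs3* (4 to 602 reads), *Ndufb4c* and *Ndufa11b*.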

Other observations

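Besides *Uqcrq*, *Txn2* and *Uqcrh*, the genes outside the list whose levels over the 16 libraries were most like the median of the complex I subunits were *Acot13*, *Cox6b1* and *Hsd17b10*, each with r = 0.994. *Acot13* is a mitochondrial acyl-CoA thioesterase, *Cox6b1* a subunit of complex IV and *Hsd17b10* a mitochondrial dehydrogenase that is also part of mitochondrial RNase P. The points share library, size factor and tissue make-up.

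Several complex I genes share exons on the same strand with a readthrough locus that was counted as a gene of its own. Gm20538, which shares exons with *Ndufb8*, had 806 to 4401 normalized counts, Gm42420, with *Ndufb2*, had 361 to 2253, and Gm49356, with *Ndufb9*, had 2281 to 6240. For each of these loci the lowest value was in PKM2fl/fl MI 3. How reads were divided between them and the complex I gene was not tested, so the levels of *Ndufb2*, *Ndufb8* and *Ndufb9* are uncertain.

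The leukocyte markers differed between sham and baseline hearts although the complex I subunits did not pass the test there. Over both genotypes, 9 of the 10 tested leukocyte markers were called higher after sham surgery (median 0.91), as were 3 of 8 fibroblast markers (median 0.53). Of 6 endothelial markers, 3 were called lower and 1 higher (median -0.26), while 0 of 12 cardiomyocyte markers were called (median 0.00).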
